A study of Arabidopsis thaliana with 6 samples.

Results

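This account follows 10 genes of Arabidopsis thaliana that form a defence output of ethylene and jasmonate signalling. They are 6 plant defensin genes of class 1, PDF1.2a (AT5G44420), PDF1.2b (AT2G26020), PDF1.2c (AT5G44430), PDF1.3 (AT2G26010), PDF1.4 (AT1G19610) and PDF1.5 (AT1G55010). With them stand the transcription factor genes ORA59 (AT1G06160) and ERF1 (AT3G23240) and the pathogenesis-related genes PR3 (AT3G12500) and PR4 (AT3G04720). They were picked by locus identifier out of 33557 loci, and all 10 were in the deposited table. The choice was made with their values in this comparison known, so these values are a description and are not tested.

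Both genotypes were in the Col-0 background: wild type, and the quadruple mutant camta1/2/3/sid2, which carries mutations in CAMTA1, CAMTA2, CAMTA3 and SID2 in all its cells. CAMTA proteins are calmodulin-binding transcription factors that hold immune genes low in warm, unchallenged plants, and SID2 (also ICS1) makes the precursor of most salicylic acid formed in immunity. All plants stood in soil at 22 °C under a light period of 12 h and 100 to 120 µmol of photons per square metre and second, and whole aerial parts were taken at an age of 21 days at zeitgeber time 12, which is dusk. The labels name 3 libraries per genotype, but the table gives 1 FPKM value (fragments scaled by the authors for transcript length and for library size) per genotype and locus, combined by the authors. No difference below therefore has a replicate check, and no standard deviation or p-value can be given. The labels name neither the alleles nor the number of plants per library, and a camta1/2/3 triple mutant and a single sid2 mutant are not analysed here.

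Class 1 defensins are small secreted proteins, rich in cysteine, that inhibit the growth of fungi. In leaves, PDF1.2 is the classic marker of the branch in which ethylene and jasmonate act together. In that branch the ethylene factors EIN3 and EIL1 raise the transcription of ERF1 and ORA59, whose proteins bind the GCC box (GCCGCC) in the promoters of defensin and chitinase genes. The other jasmonate branch runs through MYC2 to genes such as VSP2, and salicylic acid signalling is known to hold down PDF1.2 and ORA59.

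The defensins PDF1.2a, PDF1.2b, PDF1.2c and PDF1.3 are closely related copies that lie in pairs. PDF1.2a and PDF1.2c stand next to each other on chromosome 5 with 1211 bases and no annotated locus between them, and PDF1.3 and PDF1.2b on chromosome 2 with 1121 bases between them. Each copy has 2 coding exons and 243 coding bases. The second coding exon, which holds most of the coding sequence, is shown for each copy from the RefSeq annotation of TAIR10.1, 5′ to 3′ on the coding strand. Capitals mark the bases that differ from PDF1.2a.
PDF1.2a (chr5:17907216-17907394, minus strand): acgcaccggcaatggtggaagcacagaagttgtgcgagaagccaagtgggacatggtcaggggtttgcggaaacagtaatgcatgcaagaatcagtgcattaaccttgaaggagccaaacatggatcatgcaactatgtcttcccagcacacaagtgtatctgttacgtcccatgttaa
PDF1.2b (chr2:11089419-11089597, plus strand): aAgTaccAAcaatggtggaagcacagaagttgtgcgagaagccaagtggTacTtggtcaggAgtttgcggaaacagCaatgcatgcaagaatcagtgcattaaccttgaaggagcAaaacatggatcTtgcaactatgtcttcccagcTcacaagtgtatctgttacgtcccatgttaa
PDF1.2c (chr5:17909092-17909270, minus strand): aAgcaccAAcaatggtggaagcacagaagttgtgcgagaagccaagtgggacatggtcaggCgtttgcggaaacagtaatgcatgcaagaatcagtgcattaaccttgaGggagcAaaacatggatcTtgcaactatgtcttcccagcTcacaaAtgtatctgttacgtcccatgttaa
PDF1.3 (chr2:11087577-11087755, plus strand): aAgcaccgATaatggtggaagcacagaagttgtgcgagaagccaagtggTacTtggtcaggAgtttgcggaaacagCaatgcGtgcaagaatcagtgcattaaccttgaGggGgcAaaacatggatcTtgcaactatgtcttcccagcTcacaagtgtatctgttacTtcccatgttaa

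Over these 179 bases PDF1.2b differs from PDF1.2a at 11 positions, PDF1.2c at 9 and PDF1.3 at 14. Over the whole coding sequence the copies are 91.4% (PDF1.2a with PDF1.3) to 94.7% (PDF1.2c with PDF1.3) identical. PDF1.5 is more distant, at 73.2% identity with PDF1.2a, and PDF1.4 more distant still, at 60.3%. Outside the coding sequence the copies diverge more, and whole transcripts are 69.5% to 76.0% identical. This bears on how reads could be told apart between copies. Of all windows of 50 bases in the transcript, 0.566% of those of PDF1.2a and 0.601% of those of PDF1.2c occur letter for letter in another transcript, each in its neighbour. For PDF1.2b it was 28 of 560 windows and for PDF1.3 28 of 571, again shared between neighbours. No window of 75 or 100 bases in any of the 10 transcripts occurs in another one. The sources used here state neither the read length nor the handling of reads with several matches, so the split of reads among the copies was not tested.

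The GCC box is the site through which ORA59 and ERF1 act on PDF1.2, so it is shown where it occurs. In the 1000 bases before the annotated transcript start, GCCGCC was searched on both strands. It occurs in 6 of the 10 genes, PDF1.2a, PDF1.2b, PDF1.5, ORA59, PR3 and PR4, once in each and always on the coding strand. Of all 27443 protein-coding genes of the nuclear genome, 8.44% hold it in a window of the same length. The 60 bases around each box read as follows, from TAIR10.1, with the box in capitals.
PDF1.2a (chr5:17907828-17907887, minus strand): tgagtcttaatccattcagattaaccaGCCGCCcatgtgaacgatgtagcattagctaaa
PDF1.2b (chr2:11088953-11089012, plus strand): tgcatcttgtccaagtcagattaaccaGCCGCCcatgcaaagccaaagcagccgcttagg
PDF1.5 (chr1:20516871-20516930, plus strand): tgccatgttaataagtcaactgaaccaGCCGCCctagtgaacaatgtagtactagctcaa
ORA59 (chr1:1882650-1882709, plus strand): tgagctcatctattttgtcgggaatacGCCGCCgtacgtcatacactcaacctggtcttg
PR3 (chr3:3964591-3964650, minus strand): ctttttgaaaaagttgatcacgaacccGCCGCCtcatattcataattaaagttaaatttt
PR4 (chr3:1287116-1287175, minus strand): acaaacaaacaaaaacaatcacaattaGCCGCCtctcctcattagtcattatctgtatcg

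In PDF1.2a the box begins 310 bases before the coding sequence, in PDF1.2b 301 bases and in PDF1.5 180 bases before it. Positions are given from the coding start because annotated transcript starts differ among the copies. PDF1.2c and PDF1.3 hold no exact GCC box in this window. The 22 bases around the box of PDF1.2a were therefore looked for in each copy at the fewest mismatches. Capitals mark differences from PDF1.2a.
PDF1.2a (chr5:17907847-17907868, minus strand): attaaccagccgcccatgtgaa
PDF1.2b (chr2:11088972-11088993, plus strand): attaaccagccgcccatgCAaa
PDF1.2c (chr5:17909798-17909819, minus strand): attaaccagcAgcccatgtgaa
PDF1.3 (chr2:11087087-11087108, plus strand): atGaaTcaTcAgcccatgtgaa
PDF1.5 (chr1:20516890-20516911, plus strand): CtGaaccagccgcccTAgtgaa

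PDF1.2c has the same segment but for 1 base, C11A, counted from 1 at the 5′ end of the segment, which lies inside the box. PDF1.3 has 4 differences, T3G, C6T, G9T and C11A, of which G9T and C11A lie inside the box. PDF1.2b differs by T19C and G20A, outside the box. PDF1.5 keeps the box and differs by A1C, T3G, A16T and T17A around it. A match or its absence is a description of these letters and no measure of binding.

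The CGCG box, an element bound by CAMTA proteins, was searched as A, C or G, then CGCG, then C, G or T, on both strands. Other forms of a CAMTA site were not searched, so a gene without a match here may still hold such a site. No matches of different motifs named here overlap. Only PDF1.3, with 2 overlapping matches, and PDF1.4, with 1, hold it within 1000 bases, where 18.9% of all genes do. ORA59 holds none there. ORA59 is 1 of the 2 genes with a G-box (CACGTG, the element of MYC2), the other being PDF1.4, against 14.8% of all genes. The W-box of WRKY factors (TTGACC or TTGACT), held by 67.3% of all genes, occurs in every gene of the branch except PDF1.2a. The promoters of PDF1.2a, its neighbour PDF1.2c and ORA59 are printed from 250 bases before to 50 after the annotated start. The PDF1.2c segment closest to the box segment of PDF1.2a begins 312 bases before its start, outside the stretch printed. Capitals mark the GCC box.
PDF1.2a (chr5:17907589-17907888, minus strand): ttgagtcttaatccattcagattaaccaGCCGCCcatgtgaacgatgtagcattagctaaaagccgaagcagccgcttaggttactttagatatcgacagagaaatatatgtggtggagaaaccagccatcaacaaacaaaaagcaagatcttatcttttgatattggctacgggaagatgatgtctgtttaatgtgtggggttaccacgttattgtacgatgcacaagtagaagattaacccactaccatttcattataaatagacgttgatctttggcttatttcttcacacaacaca
PDF1.2c (chr5:17909458-17909757, minus strand): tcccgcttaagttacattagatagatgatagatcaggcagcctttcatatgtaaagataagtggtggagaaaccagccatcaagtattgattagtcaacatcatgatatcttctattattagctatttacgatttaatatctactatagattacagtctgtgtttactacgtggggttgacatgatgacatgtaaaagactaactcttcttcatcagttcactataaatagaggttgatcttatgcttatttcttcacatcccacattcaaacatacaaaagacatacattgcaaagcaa
ORA59 (chr1:1882657-1882956, plus strand): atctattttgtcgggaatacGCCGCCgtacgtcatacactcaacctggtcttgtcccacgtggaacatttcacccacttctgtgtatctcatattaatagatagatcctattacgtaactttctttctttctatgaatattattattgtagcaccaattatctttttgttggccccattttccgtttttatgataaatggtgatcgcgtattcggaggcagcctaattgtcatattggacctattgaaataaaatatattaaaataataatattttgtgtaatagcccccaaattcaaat

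**Figure D1:**
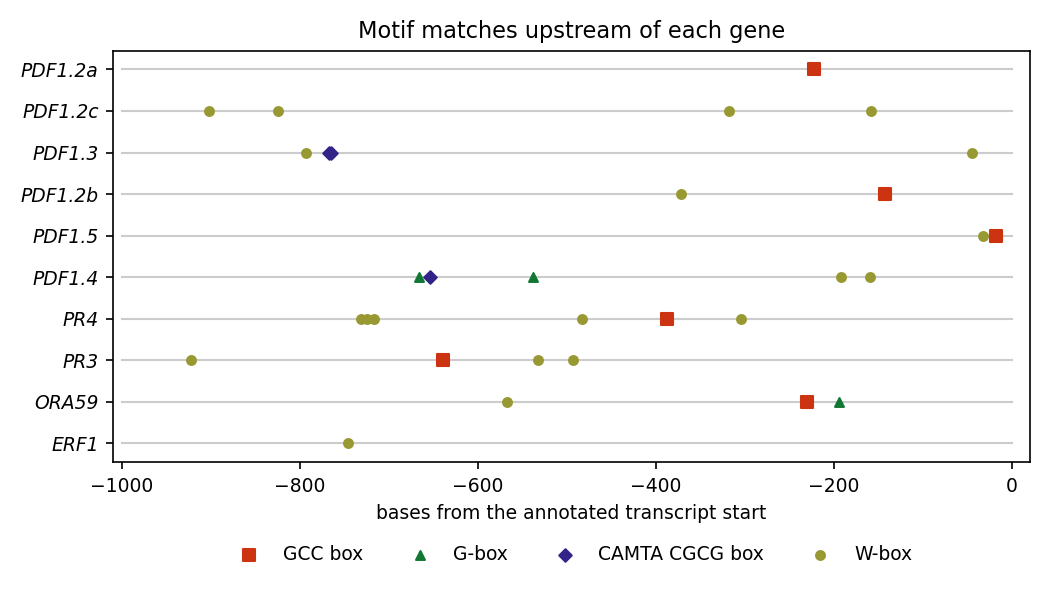
Positions of exact motif matches in the 1000 bases before the annotated transcript start of each gene (x axis, bases from the start; 1 row per gene). Red squares mark the GCC box, green triangles the G-box, blue diamonds the CGCG box and olive points the W-box. GCC boxes occur in 6 of the 10 genes and are absent from the rows of PDF1.2c, PDF1.3, PDF1.4 and ERF1.

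The defensin copies PDF1.2a, PDF1.2b, PDF1.2c and PDF1.3 were low in wild type and among the abundant transcripts in the mutant, at places 457, 1996, 716 and 1422 by level in the whole table. PDF1.2a was 1.32 FPKM in wild type and 298 in camta1/2/3/sid2, a plain ratio of 226. PDF1.2c, its neighbour, was 0.0604 and 194 FPKM. On chromosome 2, PDF1.3 was 0.0595 and 100.04 FPKM. PDF1.2b, the other gene of that pair, was 0.454 and 69.9 FPKM, or 154-fold higher. All 4 copies were thus high in the mutant, and only PDF1.2a exceeded 1 FPKM in wild type. Plain ratios for PDF1.2c and PDF1.3 were 3217 and 1683, but they rest on wild-type values close to 0. On the scale of log2(FPKM + 1) used for all comparisons, which damps such low values, the differences were 7.52 for PDF1.2c, 7.01 for PDF1.2a, 6.58 for PDF1.3 and 5.61 for PDF1.2b. They took places 2, 3, 4 and 8 among 18547 analysed loci, those with at least 1 FPKM in at least 1 genotype.

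Summing the copies avoids the question of which copy a fragment came from. Their summed level was 1.89 FPKM in wild type against 662 in the mutant, or 349.8-fold higher there. The pairs had similar plain ratios, which rest on low wild-type values. The pair on chromosome 5 was 1.38 and 492 FPKM, a 357-fold difference, and the pair on chromosome 2 was 0.513 and 169.98, a 331-fold difference. On the log2(FPKM + 1) scale the differences were 7.7 for the pair on chromosome 5 and 6.82 for that on chromosome 2. The makeup of the sum differed between genotypes. PDF1.2a supplied 69.7% of it in wild type and 45.0% in the mutant. PDF1.2c supplied 3.19% and 29.3%, PDF1.3 3.14% and 15.1%, and PDF1.2b 24.0% and 10.6%. In level, PDF1.2a led in both genotypes, whereas PDF1.2b stood second in wild type and last of the copies in the mutant. The wild-type shares rest on single values as low as 0.0595 FPKM, and the split of reads among the copies was not tested. Nothing is therefore read from this difference in makeup.

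Of the class 1 defensins followed here, PDF1.5 and PDF1.4 did not share this difference. PDF1.5 stood at 19.0 FPKM in wild type against 16.4 in the mutant (log2 ratio -0.20). It was the highest of the 6 defensins in wild type, and in the mutant the summed copies stood 40.4-fold above it. PDF1.4 was 0.846 and 0.665 FPKM and was under the filter. Of the 6 genes with an exact GCC box, the log2 ratios were 7.01 for PDF1.2a, 5.61 for PDF1.2b, 3.28 for PR4, 1.27 for ORA59, 0.76 for PR3 and -0.20 for PDF1.5. Of those without it, they were 7.52 for PDF1.2c, 6.58 for PDF1.3, 0.08 for ERF1 and -0.15 for PDF1.4. Since these values chose the genes, nothing is read from them about the box.

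**Figure D2:**
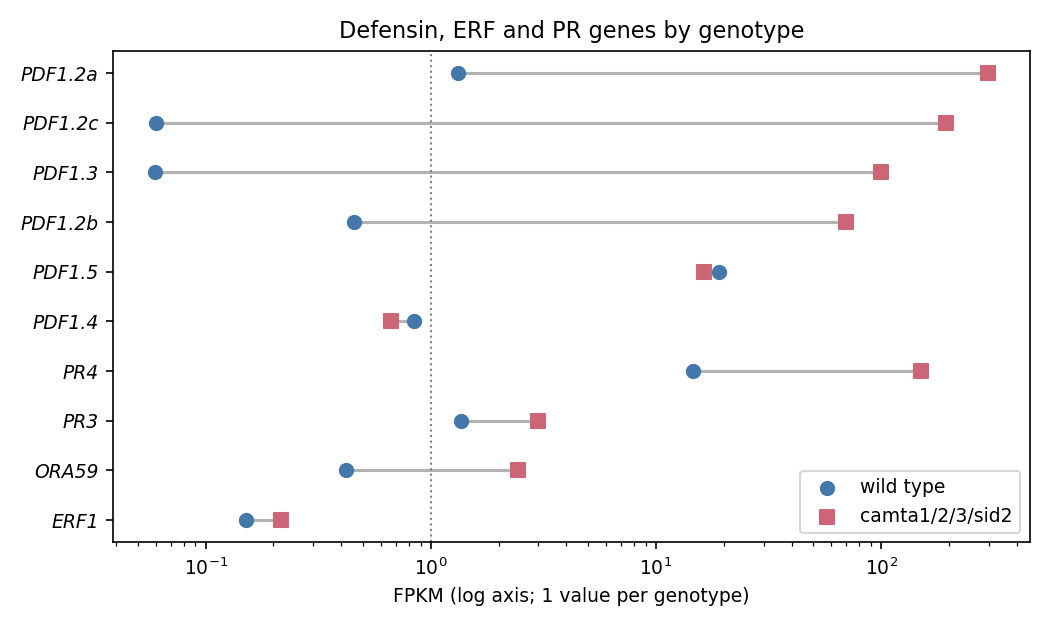
FPKM of each gene in wild type (blue circles) and camta1/2/3/sid2 (red squares) on a log axis, with a grey line joining the genotypes and a dotted line at 1 FPKM. The points are the authors' single values per genotype, so no error is drawn. PDF1.2a, PDF1.2c, PDF1.3 and PDF1.2b run from at most 1.32 FPKM to at least 69.9, while PDF1.5, PDF1.4 and ERF1 stay close between genotypes.

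The transcription factor genes were low in both genotypes. ORA59, the factor at which ethylene and jasmonate signals meet, was 0.419 FPKM in wild type and 2.43 in the mutant, 5.80-fold higher, with a log2 ratio of 1.27. ERF1, an activator of the same promoters, was 0.151 and 0.216 FPKM, under the filter in both. The level of ORA59 stood 2.77-fold above that of ERF1 in wild type and 11.3-fold above it in the mutant. The depth is unknown, so the number of fragments behind values this low is unknown as well.

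Of the PR genes, PR4 had the higher level and the wider difference. PR4, a chitin-binding protein with similarity to hevein of the rubber tree, was 14.6 FPKM in wild type and 150.1 in the mutant, 10.3-fold higher, at place 20 of the analysed loci. PR3, a basic chitinase that cleaves fungal cell walls, was 1.37 and 3.00 FPKM. That is a plain ratio of 2.19 and a log2 ratio of 0.76, short of a 2-fold difference on the log2(FPKM + 1) scale. The level of PR4 was 10.7-fold that of PR3 in wild type and 50.1-fold in the mutant. A long noncoding locus, AT3G12502, overlaps PR3 on the opposite strand, at 0.118 and 0.210 FPKM, and the sources used here do not state whether the libraries keep strand.

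In all, 6 of the 10 genes were at least 2-fold higher in the mutant and 0 at least 2-fold lower, where 0.787% of all analysed loci were 2-fold higher and 0.69% 2-fold lower. Since the genes were chosen by this contrast, nothing is read from that count. The values span a wide range: PDF1.2c, at 7.52, and PDF1.5, at -0.20, bound the 8 genes that passed the filter, and ERF1 and PDF1.4 did not pass it. The median log2 ratio of all analysed loci was -0.06, and 35.4% of them were above 0.

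**Figure D3:**
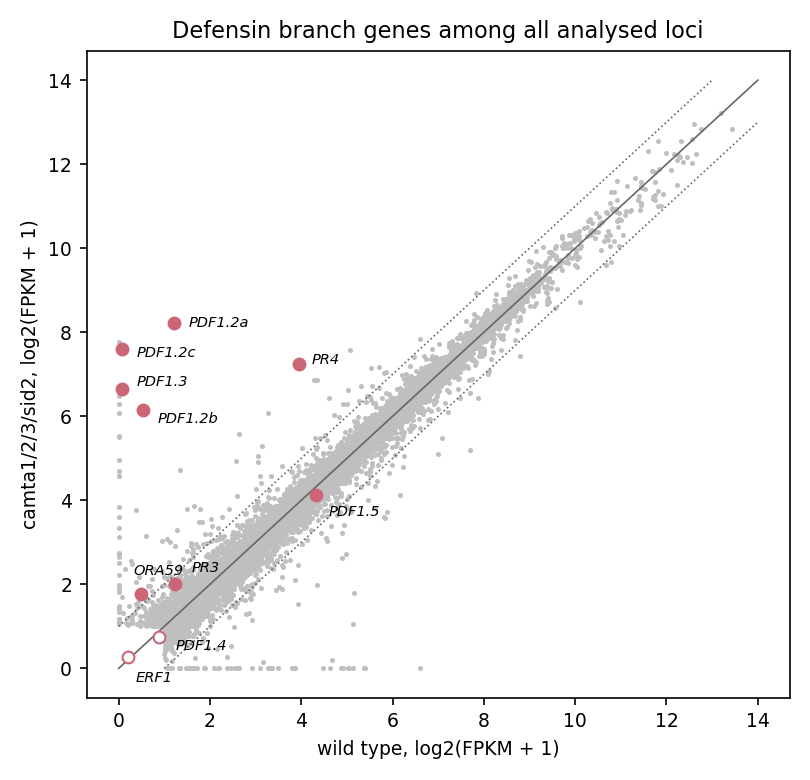
Levels in camta1/2/3/sid2 (y axis) against wild type (x axis), both log2(FPKM + 1), for 18547 analysed loci (grey) and the 10 genes (red; open where under the filter). The solid line marks equality and the dotted lines a 2-fold difference. PDF1.2a, PDF1.2b, PDF1.2c, PDF1.3, PR4 and ORA59 lie above the upper dotted line, and PDF1.5 lies near equality.

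The analysed neighbouring loci of the defensin pairs did not differ 2-fold. Of 12 loci flanking the pairs, 3 on each side, 4 had at least 1 FPKM and 0 of these were 2-fold higher or lower. Of all analysed loci, only 0.787% were 2-fold higher and 0.69% 2-fold lower, so nothing is read from this count. AT5G44450, beside the pair on chromosome 5, was 13.2 and 13.5 FPKM. Next to the pair on chromosome 2, BRIZ2 was 3.92 and 3.65 FPKM, AT2G26030 9.20 and 9.16, and the abscisic acid receptor gene PYL2 1.77 and 3.20. Beside PR4 there was 1 exception. AT3G04717, a transcribed pseudogene that begins 90 bases beyond PR4 on the same strand, was 0.311 FPKM in wild type and 3.19 in the mutant. Whether its reads stem from PR4 transcripts was not tested.

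Loci named as defensins were mostly listed at 0. By symbol or synonym, RefSeq names 89 loci of the table as defensins or low-molecular-weight cysteine-rich (LCR) proteins. Product names were not searched, so defensin-like genes under other symbols may be missing. Of the 89 loci, 70 are listed at 0 in both genotypes and 10 passed the filter. Of these 10, 5 are class 1 genes described above, and the other 5 had lower values in the mutant, beside 35.4% of all analysed loci that were higher. PDF2.2 (AT2G02100, also LCR69) was 439 FPKM in wild type and 315 in the mutant, and PDF2.3 (AT2G02130, also LCR68) was 585 and 532. The other three lay near the filter: LCR50 was 1.61 and 1.12 FPKM, LCR76 was 1.05 and 0.463, and LCR44 (AT3G06985) was 1.54 in wild type and is listed at 0 in the mutant. PDF1.1 (AT1G75830), the class 1 gene not among the 10, was 0.0730 and 0.776 FPKM, under the filter in both. Its plain ratio of 10.6 rests on a wild-type value close to 0.

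Genes that signal to ORA59 had similar levels in the genotypes. EIN3, the master transcription factor of ethylene, was 40.6 FPKM in wild type and 35.1 in the mutant, and its relative EIL1 was 20.7 and 23.2. EIN2, which carries the signal from the endoplasmic reticulum to the nucleus, was 17.0 and 15.3 FPKM. The jasmonate receptor gene COI1 was 12.6 and 11.9, and MED25, the Mediator subunit that ORA59 and MYC2 contact, was 10.2 and 9.36. Among the JAZ repressors, JAZ9 was 80.3 and 113 FPKM, JAZ12 was 88.6 and 76.3, and the log2 ratios of JAZ6 and JAZ3 were 0.36 and -0.29. Of the 16 genes of this list, 6 were higher and 10 were lower, where 35.4% of all analysed loci were higher. In this list 0 reached 2-fold, beside 0.787% of all analysed loci 2-fold higher and 0.69% 2-fold lower. The median log2 ratio was -0.10 beside -0.06 over all analysed loci. Transcript levels do not show protein stability, through which EIN3 is known to be controlled.

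Other ethylene response factors of group IX, the family of ORA59 and ERF1, were mostly higher, by less than 2-fold on the log2(FPKM + 1) scale. Of 15, 11 passed the filter, 9 were higher and 2 lower, where 35.4% of all analysed loci were higher. On that scale 0 reached 2-fold, beside 0.787% of all analysed loci 2-fold higher and 0.69% 2-fold lower. The median log2 ratio was 0.44 beside -0.06 over all analysed loci. ERF105 was 1.53 FPKM in wild type and 3.47 in the mutant, ERF104 2.83 and 5.41, ERF6 1.69 and 3.22, and AtERF1 3.18 and 4.82. The plain ratio of ERF105 was 2.26, with a log2 ratio of 0.82, short of 2-fold on the log2(FPKM + 1) scale. ERF15, a relative within the subgroup of ORA59, was 8.54 and 12.6 FPKM. ERF98, of that subgroup as well, had a log2 ratio of -0.14, and ESE1, of that subgroup too, is listed at 0 in both. Over all settings tried the median of this list lay between 0.27 and 0.56.

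Among 14 other regulators reported to act on PDF1.2, WRKY70 differed most. WRKY70, which salicylic acid induces and which represses PDF1.2, was 96.6 FPKM in wild type and 52.0 in the mutant. GRX480, a glutaredoxin that blocks ORA59 expression when overproduced, was 1.64 and 0.942 FPKM. WRKY51 was 0.963 and 1.77, and WRKY50 5.14 and 6.66; both belong to a pathway that represses jasmonate responses. WRKY33, a factor needed for resistance to necrotrophic fungi, was 9.19 and 11.4. MYC2, which represses ERF1 and ORA59, was 30.5 and 28.9 FPKM, and the salicylic acid coreceptor gene NPR1 was 17.6 and 14.8. The list had 5 genes higher and 9 lower, a split near that of all analysed loci, of which 35.4% were higher. It had 0 genes at 2-fold, beside 0.787% of all analysed loci 2-fold higher and 0.69% 2-fold lower. Its median was -0.05, which turned positive, at 0.01, when ratios were shifted to a median of 0 over all loci.

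The analysed outputs of the MYC branch differed by less than 2-fold in either direction. TAT3, a tyrosine aminotransferase, was 12.9 FPKM in wild type and 7.14 in the mutant, CORI3, a cystine lyase, was 295 and 184, and VSP1 was 74.0 and 45.5. VSP2, the usual marker of that branch, was 86.1 and 59.2 FPKM. ANAC019, a factor of that branch, was 1.38 and 1.91. Of 10 genes, 8 passed the filter, 2 were higher, 6 lower and 0 reached 2-fold. Under the filter were ANAC055, at 0.0603 and 0.390 FPKM, and THI2.1, at 0.881 and 0.453. The plain ratio of ANAC055, 6.47, rests on a wild-type value close to 0. Of all analysed loci, 0.787% were 2-fold higher and 0.69% 2-fold lower. The median of the list was -0.31 beside -0.06 over all analysed loci, of which 35.4% were higher. The median stayed below 0 under all settings tried, from -0.61 to -0.23.

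Related defence outputs were divided. CHI (AT2G43570), annotated as a chitinase, was 2.01 FPKM in wild type and 6.89 in the mutant. In the list of other chitinases, which leaves out PR3, 9 were analysed, with 5 higher and 4 lower. Of all analysed loci, 35.4% were higher. Only CHI reached 2-fold in that list, beside 0.787% of all analysed loci 2-fold higher and 0.69% 2-fold lower. AT2G43590 was 5.68 and 8.70 FPKM, ChiC 3.32 and 5.27, AT3G47540 6.89 and 9.58, and CTL2, a chitinase-like protein of cell wall formation, 8.74 and 5.70. Among 10 analysed genes for antimicrobial peptides, inhibitors and other defence products, 5 were higher and 5 lower in direction alone, beside the same 35.4%. A 2-fold difference was reached by 3 of those higher and 0 of those lower, beside 0.787% and 0.69% of all analysed loci. AACT1 (AT5G61160), annotated as an aromatic acyltransferase, was 0.213 and 4.86 FPKM. AT3G23550, annotated as a MATE efflux protein, was 0.507 and 7.91. The trypsin inhibitor gene ATTI1 was 15.2 and 36.7, and AT2G38870, a serine protease inhibitor of the potato type I, 46.9 and 79.1 FPKM. The thionin THI2.2 was 31.9 and 16.3. The medians were 0.02 for the chitinases and 0.21 for the defence products.

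**Figure D4:**
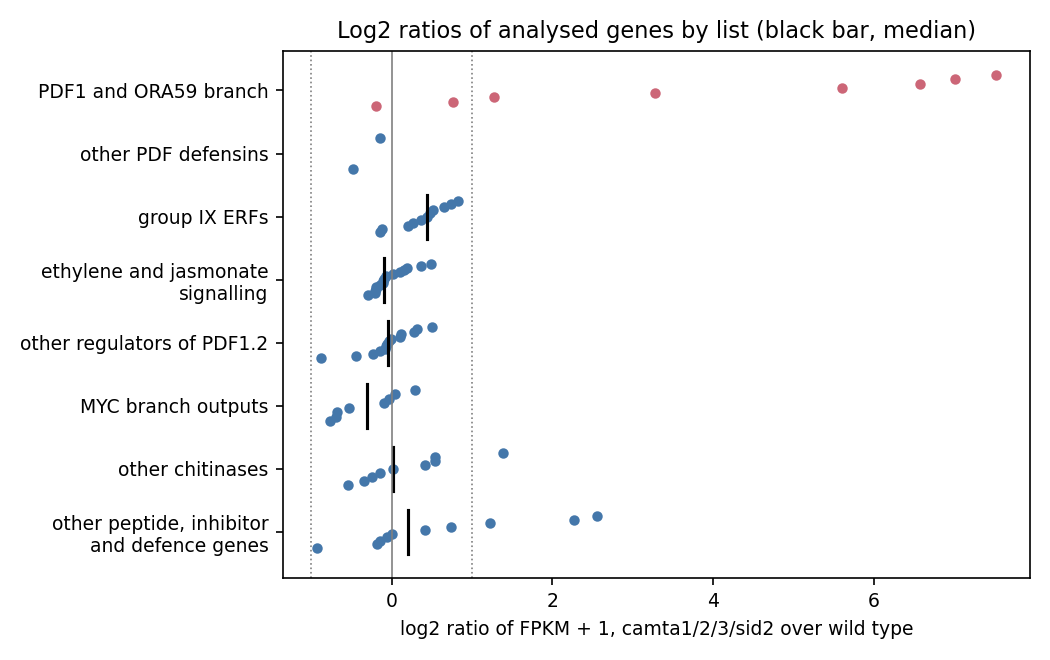
Log2 ratios of FPKM + 1, camta1/2/3/sid2 over wild type (x axis), of the analysed genes of each list (1 point per gene), with a black bar at the median of lists of at least 3 genes other than the branch itself. The solid line marks 0 and the dotted lines a 2-fold difference. PDF1.2a, PDF1.2b, PDF1.2c, PDF1.3 and PR4 lie at 3.28 or above, beyond every gene of the other lists, of which the highest is AT3G23550 at 2.56.

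Loci with a difference most like that of PR4 were sought among the 13897 loci above 0 in both genotypes and with at least 5 FPKM in 1, using the log2 ratio over the 2 genotype values. PR4 took place 7 there, against place 20 among all 18547 analysed loci. Of the 6 loci ahead of it in the narrower set, 4 were the defensin copies, which were chosen with their values known. The other two were AT4G16260, annotated as a glycosyl hydrolase, at 0.300 and 12.6 FPKM, and AT5G41109, an uncharacterized protein, at 1.55 and 25.3. Just behind PR4 stood the chloroplast locus ATCG00370, at 5.25 and 46.8, and the legume lectin genes AT3G15356, at 8.71 and 66.3, and AT3G16530, at 18.5 and 116 FPKM. AT3G23550 and GSTF7, a glutathione transferase at 19.3 and 115 FPKM, followed. With 2 values per locus this likeness is a likeness in size of difference only.

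As background on the libraries, transcripts of the mutated genes differed to unequal degrees. CAMTA1 was 13.6 and 3.30 FPKM, CAMTA3 9.94 and 2.68, CAMTA2 9.25 and 6.32, and ICS1 4.56 and 3.73. Leaf genes marked both genotypes: RCA was 1944 and 3121 FPKM and LHCB3 1760 and 815. Of 5 root markers, PYK10 was 51.6 and 55.8 FPKM, CASP1 was 0.940 and 1.57, and the other 3 were at 0.161 or below. The 3 flower markers summed to 0.498 and 0.558 FPKM, and the 3 seed markers are listed at 0. In whole aerial parts, a higher level in each cell and a larger number of expressing cells cannot be told apart.

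The GCC box was set beside the direction of difference over all genes. Of 101 protein-coding nuclear loci at least 2-fold higher in the mutant, 16.8% hold the box within 1000 bases of the start, against 10.6% of 85 that were 2-fold lower and 8.81% of 17587 within 2-fold. For the CGCG box the shares were 18.8%, 25.9% and 19.7%. These shares are descriptions. The 2-fold higher loci include PDF1.2a, PDF1.2b, PR4 and ORA59, which hold the GCC box, and PDF1.2c and PDF1.3, which do not. Since these genes were chosen with their values known, nothing is read from the difference in GCC box shares.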

How the data were processed

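Messenger RNA of whole aerial parts was sequenced from 6 libraries, 3 per genotype, per the labels. The deposited table holds FPKM values, per the file headers, with the libraries of a genotype combined by the authors into 1 value. TopHat 1.4.1, Cufflinks 2.1.1, Cuffdiff and the build TAIR10 are named, per the submitters' processing notes; how the libraries were combined, the read length, strandedness and depth are not stated there. These values are no counts, so no count model was used.

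From these values the difference was computed as log2(FPKM + 1) in the mutant minus wild type, over the 18547 loci with at least 1 FPKM in at least 1 genotype. The pseudocount of 1 understates the difference of low genes. With 1 value per genotype no test was possible, and a difference of at least 2-fold on this scale was only counted. The genes and lists were chosen with earlier results of these data known. Genes named are the 10 of the branch, up to 5 of each list by absolute log2 ratio, regulators whose role is given, the 5 loci on either side of PR4 by log2 ratio, and the targeted genes. Further list genes, flanking loci and family members were named after their values were seen.

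Sequences, gene models and locus names came from RefSeq for TAIR10.1, read by that annotation's own coordinates; the table has none. Of the 33557 loci, 97.8% matched a RefSeq locus. Identity came from global alignment with biopython 1.88. Software was Python 3.11.15 with pandas 2.3.3, numpy 2.4.6 and, for figures, matplotlib 3.10.9. The fold computation was tested on simulated data.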

Additional observations from a re-analysis of the deposited data

How the results depend on the processing

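Of 132 values recomputed under other settings, 119 moved by at most 1.5-fold and 0 changed the direction of a 2-fold difference. A pseudocount or filter cannot reverse the direction of a gene's difference, and a filter leaves its ratio unchanged. Many of these values therefore could not move, and the counts do not measure robustness. A pseudocount of 0.1 raised the log2 ratios of the lowest genes, to 10.24 for PDF1.2c, 9.29 for PDF1.3, 7.72 for PDF1.2a, 6.98 for PDF1.2b and 2.29 for ORA59, and a pseudocount of 0.5 gave 8.44, 7.49 and 6.21 for PDF1.2c, PDF1.3 and PDF1.2b, since a smaller pseudocount damps values near 0 less. With 0.1, PR3 reached 2-fold, at 1.08, and 7 of the 10 genes did. At a filter of 5 FPKM, ORA59 dropped out and 5 of the 10 remained. Summed, the defensin copies PDF1.2a, PDF1.2b, PDF1.2c and PDF1.3 gave 7.84. Of all loci, 128 were 2-fold lower, against 205 with a pseudocount of 0.1, 82 without loci at 0 in either genotype and 85 among protein-coding nuclear loci. The 146 that were 2-fold higher became 91 at 5 FPKM. Leaving out loci at 0 and keeping protein-coding nuclear loci were added after seeing the data. No paired analysis was possible because the table holds 1 value per genotype, and no library could be left out for the same reason.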
